A study of Homo sapiens with 12 samples.

Results

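The samples compared here are the 3 siMYCN samples and the 3 siHAND2 samples of an RNA sequencing series of 12 samples, and the comparison covers all genes. They were chosen by their labels alone, not by any measured value, so 6 of the 12 samples enter the direct comparison. All are IMR32, an established human neuroblastoma cell line in which the gene MYCN is amplified. Per the labels, siRNAs were delivered by Nucleofector electroporation, and total RNA was taken after 72 h in the regular RPMI-1640 growth medium with fetal calf serum. The siMYCN group received the siRNA labelled siMYCN_2 and the siHAND2 group the one labelled siHAND2_3. The siCtrl group, the reference for each change from control, received the control siRNA labelled siCTR, and the remaining 3 samples (the combined knockdown) received both targeting siRNAs. Each target is represented by 1 siRNA in 1 cell line. The labels do not say whether replicates came from separate cultures, so p-values measure only the spread between these samples, which may be technical.

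MYCN is a MYC family transcription factor that binds DNA as a dimer with MAX and is known for driving ribosome production, biosynthesis and cell division in neuroblastoma. HAND2 is a basic helix-loop-helix factor of the developing sympathetic nervous system, where it works with PHOX2A and GATA3 in setting noradrenergic identity. Sympathetic neuroblasts depend on growth factor receptors such as ALK, RET and the neurotrophin receptors, and retinoic acid is known to push them towards neuronal differentiation.

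The deposited values are CPM, read counts scaled to the size of the library. Depth, estimated from the step between low CPM values, lay between 31.6 and 42.5 M reads in the 6 samples, so that 3 reads correspond to 0.0706 to 0.0949 CPM (counting error only). The listed genes held 62.4% ± 0.98 (SD, n = 3) of all reads in siMYCN and 59.4% ± 2.39 in siHAND2. An exact two-sided permutation test on that share gave p = 0.2, where 3 against 3 samples cannot go below 0.1. Because the rest of the reads lies outside these genes, counts and list medians of the direct comparison are given on 2 scales. The first is the deposited scale, on which values and differences of single genes are given unless stated otherwise. The second, called rescaled, brings all samples to a common level of the median gene, by dividing each through the median of its gene-wise ratios to the geometric mean over samples.

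Each knockdown was checked on its own target, and their strength was unequal at the RNA level. Mean MYCN CPM in siMYCN was 67.5% of that in siCtrl, and mean HAND2 CPM in siHAND2 was 26.0%. The part of this in the differences between the knockdowns was not tested. MYCN was at 964, 1049 and 1015 CPM in siCtrl, 671, 666 and 708 CPM in siMYCN and 899, 844 and 802 CPM in siHAND2. These 3 groups did not overlap, and siMYCN lay lowest. Against siCtrl, MYCN fell by 0.57 on the log2(CPM + 1) scale in siMYCN (limma adjusted p = 5.3e-04), and its difference in siHAND2 was -0.25 (adjusted p = 0.086). Between the knockdowns MYCN differed by -0.31 (SE 0.12, limma adjusted p = 0.039). That call was lost in 8 of the 9 fits that left out 1 siCtrl, siMYCN or siHAND2 sample (adjusted p up to 0.149), with siCtrl replicate 2 the exception. Rescaled, the difference was -0.46 (adjusted p = 5.4e-05), siHAND2 overlapped siCtrl, and their difference was -0.09 (adjusted p = 0.26).

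HAND2 moved in opposite directions from control, being the target itself in 1 of the groups. It was at 224, 241 and 254 CPM in siCtrl, 324, 319 and 334 CPM in siMYCN and 54.3, 64.9 and 67.7 CPM in siHAND2. All siMYCN samples lay above all siCtrl samples, and all siHAND2 samples below them. The rise in siMYCN was 0.44 on the log2 scale (limma adjusted p = 0.0062), and the difference between the knockdowns was 2.37 (SE 0.12, adjusted p = 4.0e-14). MYCN and MYCNOS, and likewise HAND2 and HAND2-AS1, overlap on opposite strands, and use of strand in counting is not given in the sources used here, so reads of such partners cannot be told apart.

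The knockdowns differed in a large part of the transcriptome. A linear model fitted with limma to all 12 samples called 4443 of the 12680 genes tested (mean CPM of at least 1) between siMYCN and siHAND2 at an adjusted p under 0.05. Of these, 3304 were higher in siMYCN (26.1% of genes tested) and 1139 were higher in siHAND2 (8.98%). The median gene was 0.13 higher in siMYCN on the deposited log2 scale and -0.01 after rescaling, so rescaling moved the median difference by about that amount. On the rescaled values 2837 genes were higher in siMYCN (22.4%) and 2811 were higher in siHAND2 (22.2%). Both scales called 2805 genes higher in siMYCN and 1133 higher in siHAND2, and no gene was called in opposing directions on them. Differences of at least 1 on the log2 scale were called for 285 genes higher in siMYCN and 122 higher in siHAND2, or 215 and 158 after rescaling. A fit to the compared groups alone, without the combined samples, called 6730 genes.

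Set against siCtrl, siMYCN had 2202 genes higher (17.4%) and 2071 lower (16.3%), and after rescaling 3224 (25.4%) and 2847 (22.5%). siHAND2 had 1556 higher (12.3%) and 3855 lower (30.4%), and after rescaling 3286 (25.9%) and 3153 (24.9%). Both of these comparisons use the same 3 siCtrl samples, so the overlap of their calls was not tested. Of the 12680 genes tested, only 236 were called in both as risen in siMYCN and fallen in siHAND2, and 46 did the reverse. After rescaling these counts were 292 and 166, and the 2 scales shared 197 and 45. Scaling to the sum over listed genes gave 400 and 110. These counts on the deposited scale fell with any 1 sample left out. Without siCtrl replicate 1, 2 or 3 the first set held 163, 163 or 153 genes and the second 30, 32 or 28. Without 1 siMYCN or siHAND2 sample the first held 180 to 225 genes and the second 29 to 45.

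Requiring in addition a mean CPM of at least 5 and all samples of both knockdowns outside the siCtrl range left 149 genes that rose in siMYCN and fell in siHAND2, and 32 that did the reverse. The choice of these genes fixes their directions, their call between the knockdowns and the lack of overlap between the 3 groups. Their fold changes, adjusted p (from the fit over all genes) and separation are therefore given as a description. The smaller of the 2 changes from siCtrl had a median of 0.48 on the log2 scale in the first set and 0.39 in the second. Both changes reached 1 in 8 genes of the first set and in 0 of the second. The median gene span was 57.7 kb in the first set and 64.5 kb in the second, against 29.7 kb over all genes tested and 31.5 kb for the genes called in either direction between the knockdowns on both scales.

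**Figure D1:**
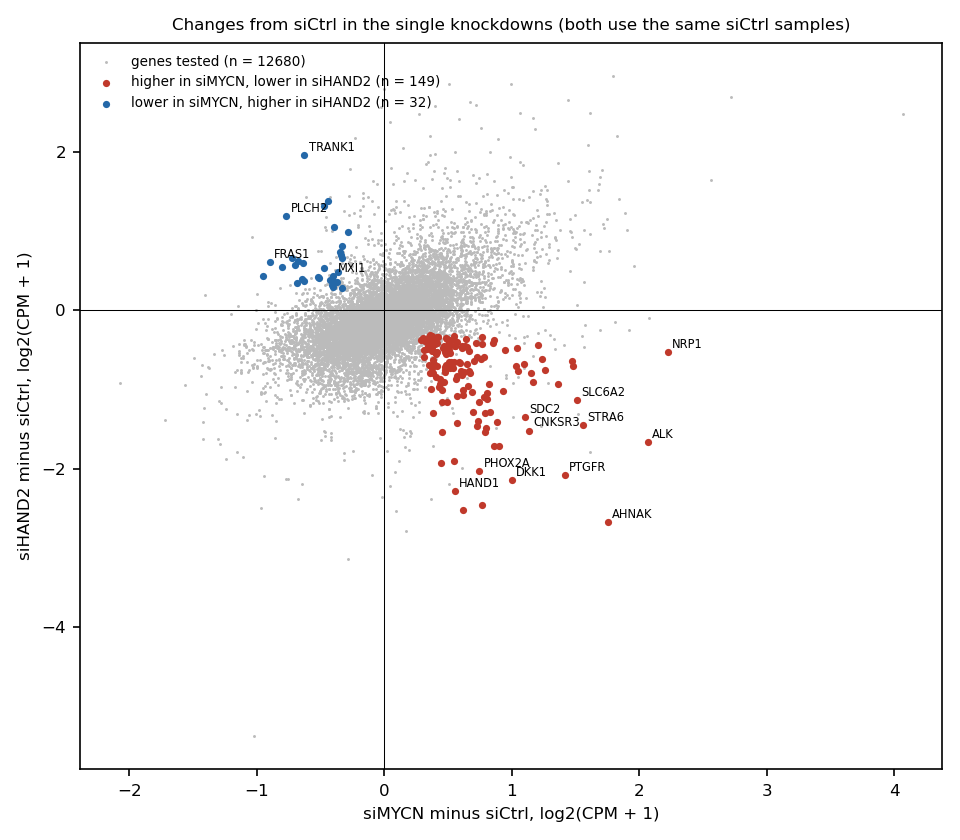
Change of each gene tested from siCtrl in siMYCN (horizontal axis) and in siHAND2 (vertical axis), both as differences in log2(CPM + 1) on the deposited scale, with each dot 1 gene. Red dots are the 149 genes that rose in siMYCN and fell in siHAND2 and blue dots the 32 that did the reverse; the axes share their siCtrl samples, so the slope of the cloud is not a result.

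Among the 149 genes that rose in siMYCN and fell in siHAND2, the 8 with the largest changes in both encode receptors, a transporter, a proteoglycan, scaffold proteins and a secreted inhibitor. ALK (all gene positions are in the hg19 build, chr2:29415640-30144478, minus strand) encodes a receptor tyrosine kinase that is mutated or amplified in some neuroblastomas. It was at 36.8, 39.7 and 37.9 CPM in siCtrl, 163, 167 and 159 CPM in siMYCN and 10.6, 11.5 and 12 CPM in siHAND2. The 3 groups were far apart, and replicates within each lay close together. The difference between the knockdowns was 3.73 on the log2 scale (SE 0.11, limma adjusted p = 1.3e-18), made up of 2.07 in siMYCN and -1.67 in siHAND2. AHNAK (chr11:62201014-62314333, minus strand), a giant scaffold protein at the inner face of the cell membrane, had the largest difference of all, 4.43 (SE 0.18, adjusted p = 3.8e-16). Its values were 113, 139 and 83.2 CPM in siCtrl, 363, 444 and 319 CPM in siMYCN and 18.5, 18.8 and 12.4 CPM in siHAND2. Within every group the third replicate was the lowest, while the groups stayed clear of each other.

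Receptors and a transporter followed. PTGFR (chr1:78956728-79006387, plus strand), the prostaglandin F receptor, was at 6.42, 7.05 and 6.13 CPM in siCtrl, 19.2, 18.9 and 19.2 CPM in siMYCN and 0.633, 0.912 and 0.8096 CPM in siHAND2. STRA6 (chr15:74471808-74502047, minus strand), the receptor through which cells take up retinol, was at 11.4, 12.8 and 10.1 CPM in siCtrl, 37.5, 37.1 and 32.2 CPM in siMYCN and 3.32, 4.12 and 3.21 CPM in siHAND2. In both genes the siMYCN samples stood above and the siHAND2 samples below all controls, with differences between the knockdowns of 3.50 and 3.01. SLC6A2 (chr16:55689542-55740105, plus strand) encodes the noradrenaline transporter, through which neuroblastoma cells also take up the imaging agent MIBG. Its levels were 17.04, 19.5 and 14.7 CPM in siCtrl, 52.9, 49.5 and 48.7 CPM in siMYCN and 6.93, 7.21 and 7.43 CPM in siHAND2, a difference of 2.65 (SE 0.13). No siMYCN sample came near a siHAND2 sample.

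The remaining genes of the 8 were a proteoglycan, a scaffold and a secreted inhibitor. SDC2 (chr8:97505882-97624038, plus strand), a membrane heparan sulfate proteoglycan, was at 17.9, 17.4 and 18.1 CPM in siCtrl, 36.7, 38.9 and 43.03 CPM in siMYCN and 6.55, 6.71 and 5.88 CPM in siHAND2. CNKSR3 (chr6:154726433-154831794, minus strand), a scaffold protein, was at 16.7, 17.9 and 18.1 CPM in siCtrl, 40.4, 38.8 and 40.2 CPM in siMYCN and 5.51, 5.503 and 5.43 CPM in siHAND2. DKK1 (chr10:54074041-54077418, plus strand), a secreted inhibitor of WNT signalling, was at 18.7, 21.4 and 14.1 CPM in siCtrl, 37.3, 45.9 and 28.7 CPM in siMYCN and 3.102, 4.09 and 2.67 CPM in siHAND2. These 3 genes differed between the knockdowns by 2.46, 2.65 and 3.15 on the log2 scale. For CNKSR3 the 3 replicates of each group were nearly alike, whereas DKK1 varied more within groups, again with the third replicate lowest in each.

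In each of the 8 genes chosen for the reverse direction, the smaller of the 2 changes from siCtrl was under 1 on the log2 scale. TRANK1 (chr3:36868308-36986549, minus strand), which encodes a large protein with ankyrin repeats, was at 4.76, 5.25 and 3.99 CPM in siCtrl, 2.27, 2.87 and 2.87 CPM in siMYCN and 24.2, 20.98 and 18.3 CPM in siHAND2. PLCH2 (chr1:2398898-2436970, plus strand), a phospholipase C of neurons, was at 10.3, 9.61 and 9.39 CPM in siCtrl, 6.15, 5.11 and 4.78 CPM in siMYCN and 22.5, 24.6 and 23.3 CPM in siHAND2. Both fell below all controls in siMYCN and rose above them in siHAND2, and the knockdowns differed by -2.59 (SE 0.13, limma adjusted p = 2.2e-14) and -1.95 (SE 0.14, adjusted p = 1.7e-11). For TRANK1 the rise in siHAND2 (1.97) exceeded the fall in siMYCN (-0.63). FRAS1 (chr4:78978724-79465424, plus strand), a matrix protein of basement membranes, was at 12.9, 13.7 and 8.98 CPM in siCtrl, 5.99, 5.78 and 5.65 CPM in siMYCN and 19.3, 17.8 and 17.98 CPM in siHAND2. PTX3 (chr3:157154580-157161418, plus strand), a secreted pentraxin, was at 12.4, 13.4 and 12.7 CPM, 7.23, 7.02 and 7.88 CPM and 20, 21.4 and 21.5 CPM in the same order of groups. Neither gene showed overlap between any of the 3 groups, which the rule for choosing them required.

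NPTX1 (chr17:78440633-78450405, minus strand), the neuronal pentraxin of synapses, was at 46.4, 47.2 and 54.3 CPM in siCtrl, 31.02, 28.8 and 34.1 CPM in siMYCN and 76.1, 73.3 and 75.7 CPM in siHAND2. SEMA6B (chr19:4542600-4559772, minus strand), a transmembrane semaphorin of axon guidance, was at 8.95, 9.86 and 11.1 CPM, 6.67, 5.29 and 5.65 CPM and 17.03, 16.6 and 13.95 CPM in that order. CCDC88C (chr14:91737667-91884189, minus strand), a protein that binds Dishevelled in WNT signalling, was at 19.9, 23.4 and 19.2 CPM, 12.9, 11.5 and 10.3 CPM and 31.6, 31.3 and 29.4 CPM. The 3 differences between the knockdowns were -1.24, -1.30 and -1.34, with the siCtrl samples in between each time. GAS5 (chr1:173833039-173837126, minus strand) is a noncoding transcript whose introns carry snoRNAs. It was at 79.9, 64.4 and 81.3 CPM in siCtrl, 46.5, 43.3 and 47.2 CPM in siMYCN and 106, 111 and 118 CPM in siHAND2, a difference of -1.27 (SE 0.12, limma adjusted p = 4.2e-09). The listed snoRNA genes inside GAS5 and an antisense gene overlap it, as do listed genes at ALK, PTX3 and FRAS1, so the source of reads there is uncertain.

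**Figure D2:**
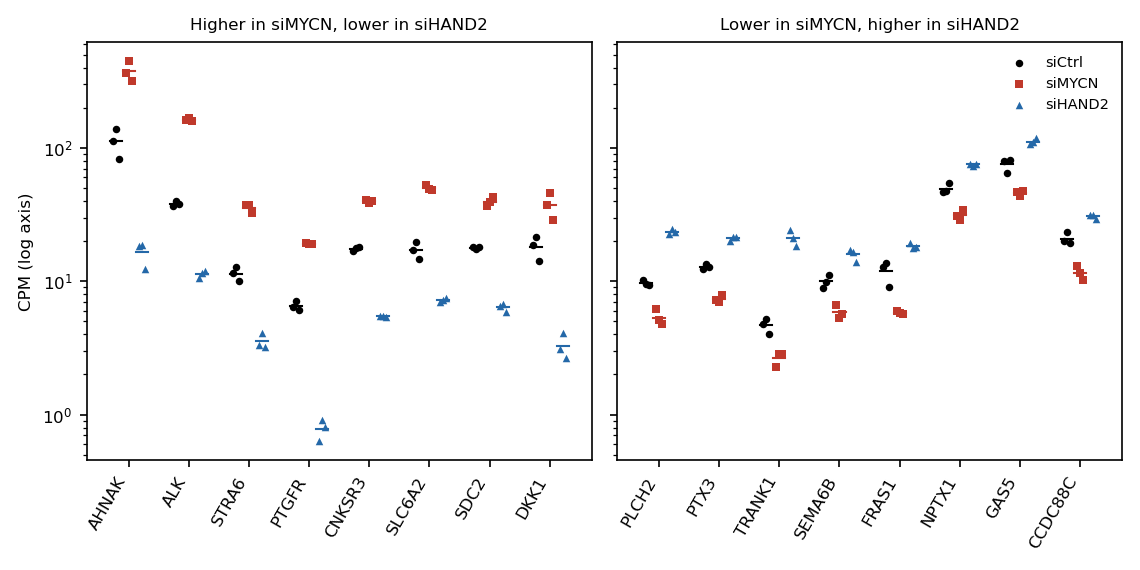
CPM of each sample (points, logarithmic axis) for the 16 named genes that moved in opposite directions from siCtrl, by group, with a short line at each group mean. In each gene the 3 siMYCN and the 3 siHAND2 points lie on opposite sides of the siCtrl points, because the rule for choosing the genes required it.

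Promoter windows of 4 of these genes are shown as the sequence context that basic helix-loop-helix factors and MYC family dimers read, the E-box CANNTG. Each is the 250 bases before an annotated transcript start in RefSeq on GRCh38.p14, a later build than that of the expression table, written 5′ to 3′ on the gene's strand, with every CANNTG match (a motif that reads the same on both strands) in capitals. ALK and AHNAK were taken for their large differences towards siMYCN, and TRANK1 and GAS5 because they moved the other way.
ALK, first window (chr2:29921587-29921836, minus strand): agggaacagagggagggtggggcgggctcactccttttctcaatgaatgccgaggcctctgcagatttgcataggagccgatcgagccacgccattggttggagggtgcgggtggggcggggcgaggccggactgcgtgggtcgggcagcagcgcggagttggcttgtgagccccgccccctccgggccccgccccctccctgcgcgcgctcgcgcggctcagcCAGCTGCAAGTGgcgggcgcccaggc
ALK, second window (chr2:29223824-29224073, minus strand): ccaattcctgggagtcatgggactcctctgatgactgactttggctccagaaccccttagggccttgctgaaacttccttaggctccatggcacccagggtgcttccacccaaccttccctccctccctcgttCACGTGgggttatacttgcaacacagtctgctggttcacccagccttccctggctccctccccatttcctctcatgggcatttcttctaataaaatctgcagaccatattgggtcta
AHNAK (chr11:62545827-62546076, minus strand): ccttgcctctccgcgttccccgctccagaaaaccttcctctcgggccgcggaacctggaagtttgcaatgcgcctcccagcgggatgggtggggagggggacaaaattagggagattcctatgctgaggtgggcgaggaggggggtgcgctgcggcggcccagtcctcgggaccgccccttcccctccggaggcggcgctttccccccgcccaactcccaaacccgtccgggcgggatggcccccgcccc
TRANK1 (chr3:36945055-36945304, minus strand): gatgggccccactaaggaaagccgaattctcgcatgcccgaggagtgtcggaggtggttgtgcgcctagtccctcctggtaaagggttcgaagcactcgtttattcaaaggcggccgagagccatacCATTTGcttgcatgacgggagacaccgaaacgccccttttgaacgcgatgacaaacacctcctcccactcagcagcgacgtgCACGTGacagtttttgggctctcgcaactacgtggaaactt
GAS5 (chr1:173869046-173869295, minus strand): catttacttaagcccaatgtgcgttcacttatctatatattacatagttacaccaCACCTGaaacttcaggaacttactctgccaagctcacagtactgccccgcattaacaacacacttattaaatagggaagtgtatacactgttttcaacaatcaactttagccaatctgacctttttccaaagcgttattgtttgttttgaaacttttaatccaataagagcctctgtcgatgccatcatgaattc
The first ALK window holds CAGCTG and CAAGTG side by side close to the start. Its second window, at an annotated start inside the gene, holds 1 CACGTG, the form read by MYC and MAX. AHNAK shows no CANNTG in this window, TRANK1 holds CATTTG and CACGTG, and GAS5 holds CACCTG. A match is a description of letters and not a site of binding.

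E-box forms were counted in the same windows for all members. RefSeq windows were found for 9663 of the 12680 genes tested, with 14273 windows in all, and windows of 1 gene can overlap. CACGTG, searched on both strands, was in 8.14% of the 221 windows of genes that rose in siMYCN and fell in siHAND2 (119 of the 149 genes matched). It was in 9.68% of the 31 windows of the reverse set (21 of 32 genes), against 8.39% of windows of genes tested and 6.34% of all windows of the table. CATCTG, searched on both strands and so also as CAGATG, was in 10.4% and in 0 of these windows, against 8.42% of windows of genes tested. CAGCTG was in 14.5% and 12.9%, against 12.9%. The shares of the opposite genes thus lay near those of all genes tested, apart from the absence of CATCTG in a set of 31 windows. Among genes called between the knockdowns on both scales, CACGTG was in 5.63% of windows of those higher in siMYCN and in 10.6% of those higher in siHAND2.

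Gene lists were then read as programmes, each described by its counts of called members and its median difference. Deposited values stand beside 26.1% higher in siMYCN, 8.98% higher in siHAND2 and a median of 0.13 for all genes. Rescaled values stand beside 22.4%, 22.2% and a median of -0.01. Of 22 noradrenergic transcription factors tested, 10 were higher in siMYCN and 4 higher in siHAND2 (10 and 6 after rescaling), and the median difference was 0.28 (0.17 rescaled). Both siRNA targets belong to this list and are in its counts, HAND2 among the 10 and MYCN among the 4 and the 6. PHOX2A, the homeobox factor that switches on noradrenaline synthesis genes, was at 72.3, 62.4 and 70.8 CPM in siCtrl, 124, 111 and 111 CPM in siMYCN and 15.4, 17.2 and 15.4 CPM in siHAND2. HAND1, the closest relative of HAND2, was at 19.2, 18.01 and 17.97 CPM, 28.8, 26.5 and 27.1 CPM and 3.45, 2.74 and 2.83 CPM in the same order. Both rose in siMYCN and fell in siHAND2 with no overlap, and differed by 2.78 (limma adjusted p = 1.5e-14) and 2.83 (adjusted p = 7.1e-16). TBX2, a T-box factor, differed by 1.01 and GATA3, a zinc finger factor, by 0.71, both higher in siMYCN. The other way, INSM1 differed by -0.78 and ISL1, a LIM homeobox factor of the sympathetic lineage, by -0.59. ISL1 had risen in both knockdowns, by 0.52 in siMYCN and 1.11 in siHAND2. PHOX2A overlaps INPPL1 on the other strand, which leaves its source of reads uncertain.

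Of 10 genes of catecholamine synthesis, storage and breakdown tested, 5 were higher in siMYCN on each scale and 0 higher in siHAND2 (limma, also 0 at an unadjusted p under 0.05), with a median of 0.50 (0.36 rescaled). DBH, the enzyme that turns dopamine into noradrenaline, was at 2.51, 2.37 and 3.07 CPM in siCtrl, 7.04, 6.77 and 10.2 CPM in siMYCN and 1.11, 0.942 and 0.738 CPM in siHAND2. The groups did not overlap at these low levels, and DBH differed by 2.21 (adjusted p = 7.2e-12). DBH-AS1 overlaps it on the other strand. SLC6A2, described above, MAOA (1.5), which breaks down monoamines, and GCH1 (0.98) and QDPR (0.75), which make and recycle the cofactor tetrahydrobiopterin, completed the 5. DDC, the decarboxylase that makes dopamine, was not called (0.14, adjusted p = 0.53).

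The neurotrophin, RET and ALK list, which also holds some ligands and other receptor kinases, had one of the largest medians, 0.68 (0.55 rescaled). Of its 14 members tested, 7 were higher in siMYCN and 4 higher in siHAND2 on each scale. The list median was 0.45 above siCtrl in siMYCN and -0.50 in siHAND2. GFRA2, the neurturin co-receptor, was at 153, 172 and 149 CPM in siCtrl, 270, 292 and 259 CPM in siMYCN and 56.3, 58.5 and 46.8 CPM in siHAND2. RET, the kinase through which such co-receptors signal, was at 1.79, 1.55 and 1.46 CPM, 6.31, 6.18 and 5.29 CPM and 1.01, 0.647 and 1.12 CPM in that order. GFRA2 was above all controls in siMYCN and below them in siHAND2, with a difference of 2.33 between the knockdowns, and RET differed by 1.85. NGFR, the low affinity neurotrophin receptor, differed by 2.02, the secreted growth factor PTN by 1.64 and FGFR1 by 1.26. Among those higher in siHAND2, the list member ERBB4, a receptor described further below, had the largest difference (-2.34). The others were NTRK3, the receptor of neurotrophin-3 (-0.92), GFRA1, the GDNF co-receptor (-0.81), and IGF1R (-0.49).

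Retinoic acid pathway genes had a median difference of 0.65 (0.52 rescaled), with 11 of 16 higher in siMYCN and 2 higher in siHAND2 on each scale. Relative to siCtrl the list median was 0.33 in siMYCN and -0.38 in siHAND2. Of its members, 5 were among the 149 genes that moved in opposite directions: STRA6, the retinoic acid carriers CRABP1 and CRABP2, the receptor RARA and the homeobox gene MEIS1. CRABP2 was at 35.02, 30.99 and 37.4 CPM in siCtrl, 53.2, 48.8 and 52.8 CPM in siMYCN and 14.8, 16.3 and 15.9 CPM in siHAND2. CRABP1 was at 31.03, 27.6 and 30.6 CPM, 53.4, 48.3 and 47.97 CPM and 19.2, 18.7 and 20.1 CPM in the same order. The 2 carriers differed between the knockdowns by 1.66 and 1.32, RARA by 0.82 and MEIS1 by 0.75. The receptor RXRG went the other way, with 4.02, 4.199 and 4.496 CPM in siCtrl, 7.31, 8.35 and 7.98 CPM in siMYCN and 24.9, 25.3 and 24.1 CPM in siHAND2. It was above control in both knockdowns and farther above in siHAND2, a difference of -1.54. CYP26A1, which degrades retinoic acid, was the other gene higher in siHAND2 (-1.06).

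Axon guidance receptors and ligands had 12 of 24 members higher in siMYCN and 4 higher in siHAND2 (11 and 7 rescaled), with a median of 0.30 (0.18 rescaled). NRP1, a co-receptor of semaphorins and VEGF, was at 9.64, 11.2 and 8.75 CPM in siCtrl, 47.5, 56.5 and 45.2 CPM in siMYCN and 7.25, 6.62 and 5.67 CPM in siHAND2. Its rise in siMYCN (2.22) was larger than its fall in siHAND2 (-0.53). UNC5C, a netrin receptor (1.81), and SLIT3, a ligand of ROBO receptors (1.38), also moved in opposite directions from control. ROBO1 (-1.21), SEMA3C (-1.05) and NRP2 (-0.73) were higher in siHAND2. The granin and neuropeptide list was split, with 3 of 10 members higher in siMYCN and 2 higher in siHAND2 (3 and 4 rescaled) and a median that changed sign with the scale (0.11, then -0.04). GAL, the peptide galanin, was at 60.1, 57.2 and 59.4 CPM in siCtrl, 96.5, 91.4 and 91.1 CPM in siMYCN and 37.1, 34.99 and 37.1 CPM in siHAND2, and the groups did not overlap. VIP differed by 2.03 and ADCYAP1 by 0.84, whereas VGF (-0.76) and CHGA (-0.41) were higher in siHAND2.

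Mesenchymal genes were higher in siMYCN for 15 of 26 members and higher in siHAND2 for 1 (15 and 4 rescaled), with a median of 0.55 (0.40 rescaled). Against siCtrl the list median was 0.10 in siMYCN, with 11 members higher and 3 lower. In siHAND2 it was -0.36, with 3 higher and 14 lower. Examples of members higher in siMYCN than in siHAND2 are SPARC (1.62), COL1A1 (1.57), LGALS1 (1.51), ANXA2 (1.07) and S100A6 (1.09), which encode matrix, lectin and calcium-binding proteins. COL1A1 was at a mean of 7.898 CPM in siCtrl, 6.129 CPM in siMYCN and 1.408 CPM in siHAND2. ZEB2, a repressor of epithelial genes, was the member higher in siHAND2 on the deposited scale (-0.43). SPARC was at 61.7, 58.1 and 55.8 CPM in siCtrl, 67.9, 63.95 and 59.4 CPM in siMYCN and 22.6, 20.8 and 17.1 CPM in siHAND2. Its siMYCN samples overlapped the controls, and its siHAND2 samples lay far below both. Markers of fibroblasts and of Schwann cells moved along with this list. The 12 fibroblast markers summed to 166.9 to 177.5 CPM in siMYCN and 66.35 to 79.05 CPM in siHAND2 (129.7 to 139.1 CPM in siCtrl). Most of that was PDGFRA, at a mean of 139.8 CPM against 52.85 CPM, while FAP, PDPN and POSTN were listed at 0 and DCN stayed at or below 0.0633 CPM. Of the 12, 4 passed the expression filter and 3 were higher in siMYCN. The 12 Schwann cell markers summed to 78.97 to 80.94 CPM in siMYCN and 45.57 to 46.03 CPM in siHAND2 (50.03 to 51.3 CPM in siCtrl). Within that sum PMP22 was at a mean of 28.71 CPM against 9.956 CPM, while the defining markers SOX10 and S100B stayed under 1 CPM, and 3 of the 12 were tested and higher in siMYCN. The part of other cell types in the mesenchymal difference was not tested. In bulk RNA, fewer cells of a type and less RNA per cell cannot be told apart.

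Genes of protein synthesis lay on the other side. Among cytosolic ribosomal proteins 42 of 47 were lower in siMYCN than in siHAND2 (all 47 rescaled) and 0 were higher (limma, also 0 at an unadjusted p under 0.05), with a median of -0.47 (-0.62 rescaled). Against siCtrl 44 fell in siMYCN (median -0.50), while 2 fell in siHAND2 and the median there was -0.03. After rescaling 11 rose in siHAND2 and 0 fell, though 2 were lower at an unadjusted p under 0.05. RPL12, of the large subunit, was at 719, 669 and 796 CPM in siCtrl, 395, 381 and 400 CPM in siMYCN and 742, 801 and 786 CPM in siHAND2. Only the siMYCN samples left the control range by more than a small margin, and the difference between the knockdowns was -0.98 (SE 0.11, limma adjusted p = 1.6e-07), whereas that of siHAND2 from siCtrl was 0.10 (adjusted p = 0.52). RPS18 differed by -0.85 and RPL3 by -0.75. RPLP0 (-0.25) and RPSA (-0.17) were not called on the deposited scale. Elongation factors and ribosome partners, with 7 of 10 lower in siMYCN (9 rescaled), had a median of -0.38. EEF2, the translocation factor, differed by -0.69. Transcripts that host snoRNAs, with 10 of 13 lower in siMYCN (12 rescaled), had a median of -0.41, and SNHG5 differed by -0.92. In both of these lists 0 members were higher in siMYCN, also at an unadjusted p under 0.05.

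Ribosome biogenesis differed in degree rather than direction. Against siCtrl 37 of 40 members fell in siMYCN (median -0.72) and 33 fell in siHAND2 (median -0.46). Between the knockdowns 19 were lower in siMYCN (37 rescaled) and 0 higher (limma, also 0 at an unadjusted p under 0.05), with a median of -0.30 (-0.44 rescaled). NPM1, the nucleolar chaperone, was at 1757, 1632 and 1869 CPM in siCtrl, 857, 855 and 871 CPM in siMYCN and 1236, 1345 and 1297 CPM in siHAND2. Each siMYCN sample lay below each siHAND2 sample, a difference of -0.58, and RRP12, which acts in export of ribosomal subunits, differed by -0.66. NOP56, of the box C/D snoRNP core, was not called on the deposited scale (-0.04). The one carbon, nucleotide and polyamine genes fell in both, 26 of 29 in siMYCN (median -0.57) and 24 in siHAND2 (median -0.52), and 3 were higher and 4 lower in siMYCN than in siHAND2 (2 and 15 rescaled). Chaperonin and mitochondrial chaperones had 3 of 14 lower in siMYCN (12 rescaled), and aminoacyl tRNA synthetases 1 of 20 (11 rescaled), so these last 3 lists separated the knockdowns mainly after rescaling. Of 14 amino acid transporters, 2 were higher and 4 lower in siMYCN (2 and 8 rescaled). SLC38A5 (-1.16) and SLC7A5 (-0.84) were lower in siMYCN and SLC1A4 (0.88) was higher.

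Cell division genes were lower in siHAND2. In the DNA replication list 34 of 37 members were higher in siMYCN than in siHAND2 on each scale and 0 were lower (limma, also 0 at an unadjusted p under 0.05), with a median of 0.55 (0.40 rescaled). All 37 fell in siHAND2 against siCtrl (median -0.86), and 16 fell in siMYCN (median -0.29; 26 after rescaling). GINS3, of the replicative helicase, was at 66, 69.4 and 67.4 CPM in siCtrl, 71.3, 73.4 and 68.3 CPM in siMYCN and 29.4, 28.8 and 23.8 CPM in siHAND2. PCNA, the sliding clamp of DNA polymerase, was at 226, 202 and 232 CPM, 201, 193 and 182 CPM and 118, 123 and 116 CPM in the same order. The siHAND2 samples were the lowest of the 3 groups for both genes, which differed between the knockdowns by 1.35 and 0.69. For PCNA the difference of siMYCN from siCtrl was -0.19 (limma adjusted p = 0.21). TK1, thymidine kinase, differed by 0.99.

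Mitosis genes gave the largest median among the lists other than cell type markers, 0.72 (0.57 rescaled), with 32 of 34 higher in siMYCN (31 rescaled) and 0 lower (limma, also 0 at an unadjusted p under 0.05). All 34 fell in siHAND2 against siCtrl (median -0.86), and 6 fell in siMYCN (median -0.15; 11 after rescaling). KIF23 (0.98) and ANLN (0.90), which act in cytokinesis, and UBE2C (0.86), of the anaphase promoting pathway, are examples. UBE2C was at 80.8, 82.2 and 87.6 CPM in siCtrl, 81.8, 87.4 and 81.6 CPM in siMYCN and 44.6, 47.9 and 44.2 CPM in siHAND2. The proliferation marker MKI67 differed by 0.50 on the deposited scale and was not called after rescaling (0.36, limma adjusted p = 0.22). Of 12 CDK inhibitors and G1 regulators 8 were higher in siMYCN on each scale, among them CCND1 (0.67). CDKN2C, an inhibitor of CDK4 and CDK6, rose in siMYCN (0.48) and fell in siHAND2 (-0.35). Cholesterol and fatty acid synthesis genes were higher in siMYCN for 17 of 26 and lower for 1 (16 and 3 rescaled), with a median of 0.47 (0.32 rescaled). In siHAND2 20 of them had fallen (median -0.58). MVK (0.76), an enzyme of cholesterol synthesis, was higher in siMYCN, and FASN (-0.39), fatty acid synthase, was higher in siHAND2.

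**Figure D3:**
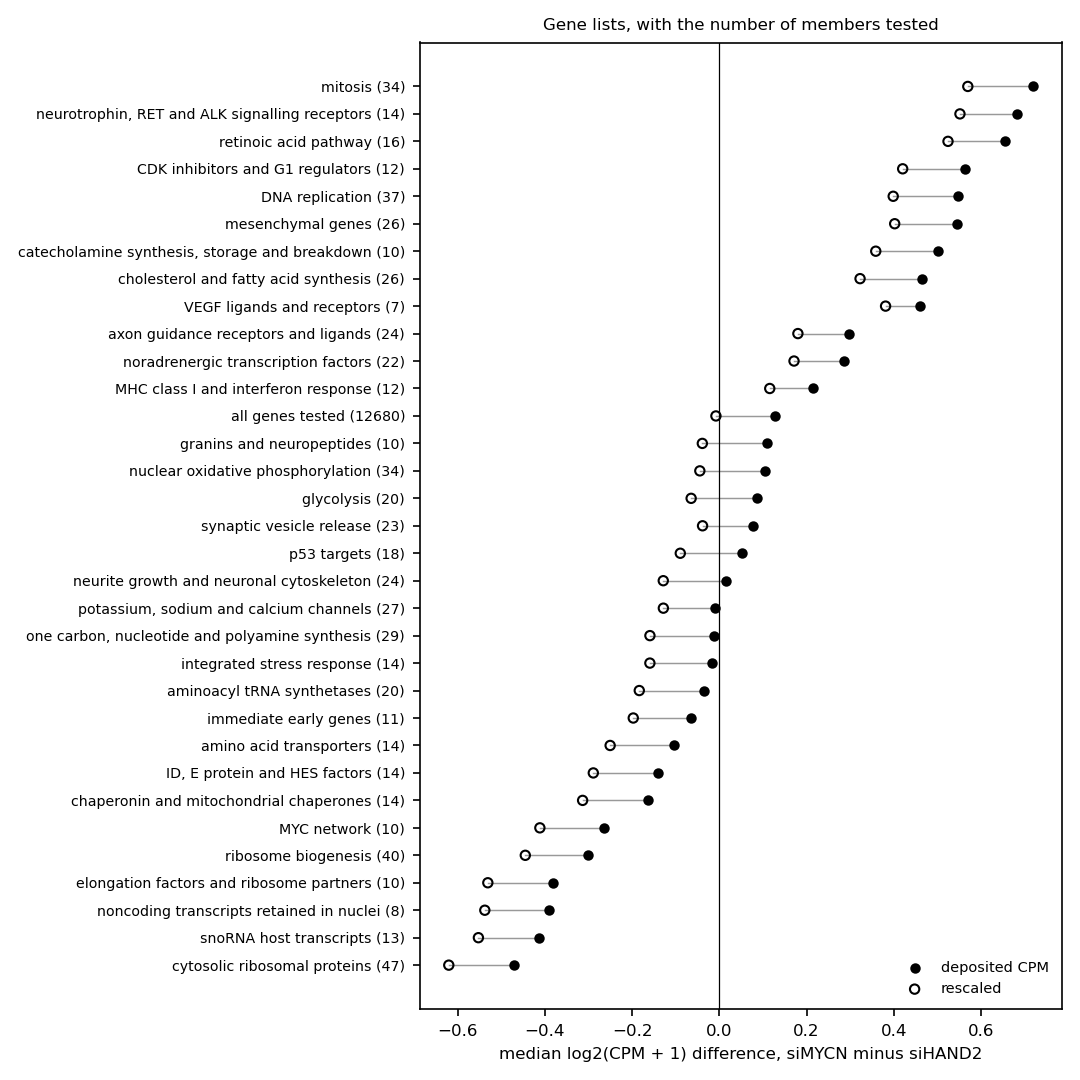
Median difference between siMYCN and siHAND2 in log2(CPM + 1) over the tested members of the gene lists, with filled circles for the deposited and open circles for the rescaled values, numbers tested in brackets, and all genes tested as 1 of the lines. Cell type markers are not plotted. Mitosis, the neurotrophin, RET and ALK list and retinoic acid genes lie farthest to the right, and cytosolic ribosomal proteins farthest to the left.

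Neuronal structure genes did not separate the knockdowns as a list. Neurite growth and neuronal cytoskeleton genes rose in both, 19 of 24 in siMYCN and 17 in siHAND2. Directly compared, 6 were higher in siMYCN and 3 higher in siHAND2 (6 and 7 rescaled), with a median of 0.02 that turned to -0.13 after rescaling. Single members differed within that shared rise. STMN2, a microtubule regulator of growth cones, was at 4.08, 2.78 and 5.14 CPM in siCtrl, 81.97, 78.3 and 83.2 CPM in siMYCN and 23.7, 25.2 and 30.98 CPM in siHAND2. GAP43, a growth cone protein, was at 7.38, 6.94 and 7.42 CPM, 28.2, 27.5 and 26.9 CPM and 57.3, 63.7 and 69.8 CPM in the same order. Both were far above control in every knockdown sample, but STMN2 was higher in siMYCN (difference 1.58, limma adjusted p = 9.9e-09) and GAP43 in siHAND2 (-1.17, adjusted p = 8.3e-08). MAPT, the tau protein of axons, was also higher in siHAND2 (-0.58). Neurofilament NEFM was higher in siHAND2 (-0.89), rose there against siCtrl (0.50) and was not called in siMYCN (-0.39, adjusted p = 0.068). Synaptic vesicle release genes were split too, 6 and 4 of 23 (6 and 7 rescaled), with SYT4 (1.06) and SYN2 (1.06) higher in siMYCN and SV2C (-1.47) higher in siHAND2. Of 27 potassium, sodium and calcium channels, 7 were higher in each knockdown (6 and 9 rescaled). KCNQ5, a potassium channel that dampens firing, was at 15.6, 14.6 and 15.9 CPM in siMYCN and 2.53, 1.24 and 1.38 CPM in siHAND2, whereas the calcium channel CACNA1H was higher in siHAND2 (-1.35).

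**Figure D4:**
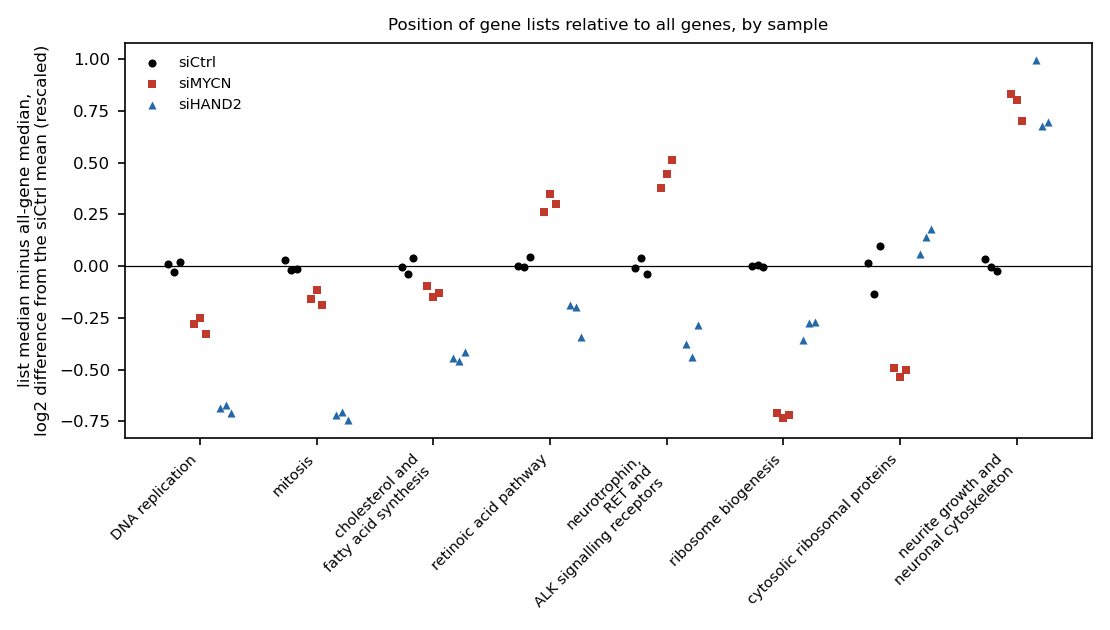
Score of each sample for 8 gene lists, the median of its members' changes from the mean of siCtrl less the median over all genes tested (rescaled values), with 1 point a sample. The 3 siMYCN scores lie above all siHAND2 scores for DNA replication, mitosis, cholesterol, retinoic acid and neurotrophin lists, below them for ribosome biogenesis and ribosomal proteins, and overlap with them for neurite genes.

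Of the 8 lists plotted by sample, 7 separated every siMYCN sample from every siHAND2 sample. The 8 were picked for display by no set rule, and such separation was not particular to them. A score was taken on rescaled values as the members' median change from the mean of siCtrl less the median of all genes. By it, mitosis ranged from -0.19 to -0.12 in siMYCN and from -0.74 to -0.71 in siHAND2. Ribosomal proteins ranged from -0.53 to -0.49 in siMYCN and from 0.06 to 0.18 in siHAND2. The neurotrophin, RET and ALK list ranged from 0.38 to 0.51 in siMYCN and from -0.44 to -0.28 in siHAND2. Retinoic acid genes ranged from 0.26 to 0.35 in siMYCN and from -0.34 to -0.19 in siHAND2. The neurite genes overlapped, with 0.70 to 0.83 in siMYCN and 0.68 to 0.99 in siHAND2. Lists outside the 8 also separated all samples, among them glycolysis (-0.33 to -0.27 in siMYCN, -0.23 to -0.17 in siHAND2). The integrated stress response did so too (-0.01 to 0.09 in siMYCN, 0.11 to 0.21 in siHAND2). Among lists that overlapped were p53 targets and synaptic vesicle release.

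The genes farthest apart between the knockdowns were also taken on their own, whatever their direction from control. VEGFD, a growth factor for lymphatic vessels, was at 60.4, 58.6 and 67.9 CPM in siCtrl, 29.3, 26.6 and 35.1 CPM in siMYCN and 0.0386, 0.765 and 0.914 CPM in siHAND2. It fell in both knockdowns, and in siHAND2 it was nearly lost, with 1 sample under the level of 3 reads, so that the difference of 4.36 is between 2 lowered groups. The listed readthrough gene PIR-FIGF overlaps VEGFD, so the source of its reads is uncertain. ARHGAP29, a GTPase-activating protein, was at 37.1, 33.7 and 29.8 CPM in siCtrl, 59.9, 58.04 and 54.4 CPM in siMYCN and 5.95, 4.83 and 5.096 CPM in siHAND2. FLRT3, an adhesion and guidance molecule, was at 23.2, 24.7 and 26.5 CPM, 37.99, 36.98 and 40.5 CPM and 3.48, 3.59 and 3.41 CPM in that order. These 2 genes rose in siMYCN and fell in siHAND2, differing by 3.22 and 3.14.

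Several of the genes farthest apart on the siHAND2 side rose there, and in siMYCN rose less or were not called. ERBB4, a neuregulin receptor, was at 3.86, 4.61 and 4.57 CPM in siCtrl, 4.27, 4.32 and 4.92 CPM in siMYCN and 29.3, 24.98 and 26.3 CPM in siHAND2. The siMYCN samples overlapped the controls (log2 difference 0.04, limma adjusted p = 0.82), and the siHAND2 samples were well above both. PPP1R17, a phosphatase inhibitor, was at 5.397, 4.68 and 7.44 CPM, 5.49, 5.09 and 6.4 CPM and 40.5, 36.8 and 39.7 CPM. SDK2, an adhesion molecule of synaptic layers, was at 7.08, 8.67 and 6.59 CPM, 11.8, 9.71 and 11.3 CPM and 71.97, 55.1 and 53.9 CPM, having risen in both knockdowns. These 3 genes differed between the knockdowns by -2.34, -2.59 and -2.35. Further members of that group were BTBD17 (-2.41), the acid-sensing channel ASIC1 (-2.21), the potassium channel KCNJ6 (-2.19) and NPPA, atrial natriuretic peptide (-1.96). Many other genes named here also overlap a listed gene, so part of the reads counted for them may belong to that partner. On the other strand these are FLRT3, SDK2, NPPA, ISL1, NTRK3, RARA, MEIS1, ROBO1, SPARC, ZEB2, PCNA, KIF23, ANLN, CACNA1H, SYN2, DDC, MXD3 and KCNQ1OT1. On the same strand, mostly as small RNA genes, they are ERBB4, RPL12, RPL3, RPSA, EEF2, SNHG5, MEG3, GFRA1, GCH1, FASN, SLC7A5 and PMP22. NGFR, IGF1R, SLIT3, MAPT, NOP56 and KCNQ5 have partners on both strands.

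Other regulators were mixed. In the MYC network 1 of 10 genes was higher in siMYCN and 4 higher in siHAND2 (1 and 6 rescaled). MXI1, a MAX partner that opposes MYC, was at 22.9, 22.9 and 22.3 CPM in siCtrl, 16.8, 16.4 and 17.7 CPM in siMYCN and 32.6, 31.4 and 28.8 CPM in siHAND2, and MXD3, a protein of the same class, was higher in siMYCN (1.00). MXI1 was 1 of 2 list genes, with GAS5, among the 32 that fell in siMYCN and rose in siHAND2, and 23 of the 149 belonged to a list. Of 14 ID, E protein and HES factors, 2 were higher in siMYCN and 3 higher in siHAND2, but 2 and 9 after rescaling. The proneural gene NEUROG2 moved in opposite directions from control and differed by 1.19, while NHLH1 was higher in siHAND2 (-1.87). ID2 was higher in siMYCN (0.50) and ID1 higher in siHAND2 (-0.59), both being proteins that block helix-loop-helix dimers. A list drawn up as noncoding transcripts retained in nuclei had 4 of 8 higher in siHAND2 on each scale. In it 0 were higher in siMYCN (limma, also 0 at an unadjusted p under 0.05). Among the 4 were MEG3 (-1.86), KCNQ1OT1 (-0.70) and GAS5 (-1.27). GAS5 is also counted among the snoRNA hosts, so these lists are not separate there, and where its transcript lies in the cell was not measured. Of 12 genes of MHC class I and interferon response 5 were higher in siMYCN and 1 lower. B2M, the light chain of MHC class I, was at 119, 103 and 115 CPM in siCtrl, 107, 103 and 97.2 CPM in siMYCN and 52.98, 55.8 and 50.2 CPM in siHAND2.

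The opposite genes were also placed in the combined knockdown, relative to the single knockdowns. The position itself uses no siCtrl value, but the genes were chosen with the siCtrl, siMYCN and siHAND2 samples, so it is a description. With the siHAND2 mean as 0 and the siMYCN mean as 1 on the log2 scale, the combined mean of the 149 genes that rose in siMYCN and fell in siHAND2 had a median position of 0.091, and 143 lay nearer siHAND2. After rescaling these values were 0.235 and 111. For comparison, of the 2805 genes called higher in siMYCN than in siHAND2 on both scales, 85.4% lay nearer siHAND2, or 63.1% rescaled. Of the 32 genes that did the reverse, 17 lay nearer siHAND2 (median position 0.465), or 28 after rescaling (0.293). These come to 53.1% and 87.5%, beside 47.9% and 69.8% of the 1133 genes called higher in siHAND2 on both scales. In the combined samples the listed genes held 58.4%, 51.4% and 44.3% of the reads, and the part of this in their position was not tested. AHNAK was at 39.4, 57.4 and 36.9 CPM, ALK at 22.5, 20.7 and 17.7 CPM and TRANK1 at 11.6, 13.6 and 9.99 CPM in the 3 combined samples.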

How the data were processed

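The authors deposited 1 table of CPM for 27514 genes, with 1 column per sample. Reads were aligned to hg19 (GRCh37) with STAR 2.5.1, and Partek is also named, per the submitters' processing notes. How reads were counted, whether strand was used, and which annotation and filters applied are not given in the sources used here. A constant of 0.0001 added to every deposited CPM value was removed. The CPM steps did not give whole reads for nearly all genes (88.7 to 90.6% of values under 20 reads, within 0.05 of a whole number), so no count model was fitted.

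Tests used log2(CPM + 1) and the 12680 genes whose CPM averaged at least 1. limma 3.58.1 in R 4.3.3 was fitted to the 4 groups of 3 samples (8 residual degrees of freedom, mean-variance trend) and tested on simulated data. Tests were two-sided, with Benjamini-Hochberg adjustment over all genes tested, and a gene is called at an adjusted p under 0.05. Fold changes on the log2(CPM + 1) scale understate changes of low genes. Rescaling used genes whose CPM averaged at least 5.

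Named genes were both targets, list genes, the 8 genes of each opposite direction with the largest smaller change from siCtrl, and the 8 largest differences of each direction between the knockdowns, at a mean CPM of at least 5 and without overlap of groups. The members and lists were chosen with earlier results of these data known, and the lists of snoRNA hosts and of elongation factors were added after seeing the data. A planned list of mitochondrially encoded transcripts matched no gene and is not analysed here. Results for a few list genes are not reported here. Same-numbered siMYCN and siHAND2 samples deviated together from their group means (correlations of 0.33, 0.14 and 0.32 over genes), so a fit with the replicate number as a block was among the alternatives, with other scalings, filters, thresholds and left-out samples. No siMYCN or siHAND2 sample was a copy of another of its group, with mean chi-square values per gene of 3.61 to 14.7, and the pairs within siCtrl and within the combined knockdown gave 9.48 to 44.1.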

Additional observations from a re-analysis of the deposited data

How the results depend on the processing

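Against the 4443 genes called, 3304 higher in siMYCN and 1139 higher in siHAND2, and the 236 and 46 opposite genes, scaling moved mainly the siHAND2 side. Rescaling gave 2811 genes higher in siHAND2 and 166 opposite genes that rose there, and scaling to the sum over listed genes gave 1992, with 400 and 110 opposite genes. Fitting only the compared groups gave 6730 genes, 5043 of them higher in siMYCN, and 624 and 110 opposite genes. An adjusted p under 0.01 left 2890 genes (2172 and 718) and 130 and 19 opposite genes. A log2 difference of at least 1 left 407 (285 and 122) and 12 and 0 opposite genes. With the replicate number as a block for the paired samples, 5163 genes were called (3783 and 1380), with 300 and 67 opposite genes, and the block changed no call of a gene chosen by rank. With the block on rescaled values, 3053 genes were higher in siHAND2 and 194 opposite genes rose there. Leaving out each sample in turn gave 3261 to 4149 genes called, 2418 to 3079 higher in siMYCN, 804 to 1070 higher in siHAND2, and 153 to 225 and 28 to 45 opposite genes. The difference in the share of reads in listed genes, 2.93 percentage points, ranged from 1.60 without siHAND2 replicate 3 to 3.91 without siHAND2 replicate 1. Rescaling shared 2805 of the 3304 and 1133 of the 1139 calls. The medians of the glycolysis, granin, neurite, oxidative phosphorylation, p53 and synaptic lists changed sign on rescaling, the neurite and p53 lists also on scaling to the sum, and medians near 0 (stress response, immediate early, one carbon, channel and synaptic lists) also with single samples left out. The cause of these shifts was not tested.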

Other observations

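Counts of energy metabolism and stress genes are given beside all genes tested, of which 26.1% were higher in siMYCN and 8.98% higher in siHAND2 (22.4% and 22.2% rescaled). Of 34 nuclear genes of oxidative phosphorylation, 7 were higher in siMYCN and 0 higher in siHAND2 on the deposited scale (limma, also 0 at an unadjusted p under 0.05), but 4 and 4 after rescaling. Glycolysis had 3 of 20 genes higher in siMYCN and 1 higher in siHAND2, and 3 and 6 after rescaling. Targets of p53 gave 3 and 1 of 18, then 3 and 5. Genes of the integrated stress response gave 2 and 1 of 14, then 2 and 4. Of 11 immediate early genes, 5 rose in siMYCN and 7 in siHAND2 against siCtrl, and 2 were higher in siHAND2 than in siMYCN (5 rescaled) with 0 higher in siMYCN, also at an unadjusted p under 0.05. Of 7 VEGF ligands and receptors, 4 were higher in siMYCN and 1 higher in siHAND2 (4 and 2 rescaled).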
